A study of Homo sapiens with 13 samples.

Results

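The potassium channel genes described here were the protein-coding genes of GENCODE release 44 on hg38 whose symbol begins with KCN, 96 of 20007 protein-coding genes with 1 gene kept per symbol. Of these, 69 encode pore-forming subunits, 10 encode silent voltage-gated subunits that only modify other channels, and 17 encode auxiliary subunits or regulators. They were examined in ATAC-seq data from H82 and H146, established human small cell lung cancer (SCLC) cell lines, an assay that uses the Tn5 transposase to cut and tag open DNA. The groups were untreated H146 (4 libraries), H146 exposed to the SMARCA4 and SMARCA2 inhibitor FHD-286 at 100 nM for 14 days (3 libraries), untreated H82 (3 libraries) and H82 exposed to the same dose for the same time (3 libraries). The labels give both lines as wild type, with no other agent. For each line the files give a single list (atlas) of accessible regions that pools its untreated and treated libraries, so FHD-286 could not be compared with no treatment and only the lines were set side by side. As a check of the lines, NEUROD1, which defines the subtype of H82, had a region of 7865 bp at its start site in H82 and none within 1 kb of it in H146.

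Potassium channels let potassium leave the cell down its gradient, which sets the resting potential and ends each action potential. Voltage-gated members open on depolarization, inward rectifiers and leak channels hold the membrane near rest, and calcium- or sodium-activated members couple ion entry to repolarization, while auxiliary subunits change gating, trafficking and surface number. SCLC cells with a neuroendocrine phenotype are excitable and fire action potentials, in which potassium channels take part. Whether the KCN genes belong to a neuronal programme of these cells was not tested.

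A region was called present at a gene when it lay within 1 kb of the gene's transcription start site (TSS, the 5′ end of the GENCODE gene), and the locus was the gene body with 10 kb to either side. The covered share was the percent of the locus that lay in regions, and a locus was called higher in a line when that line covered at least 2 times as many bases and at least 1 kb. Regions carry no height or count, so depth was unknown, no value had a spread between cultures and no difference between the lines was tested. Differences between the lines cannot be told apart from how many libraries were pooled, how deeply they were sequenced and how many DNA copies each line carries. Per the study's methods, H146 was sequenced in 2 batches, and its atlas pools both. Most untreated H146 libraries were in the first, and the remaining untreated library was in the second with the treated ones. The atlases held 206927 regions in H82 and 174093 in H146, of which 1577 and 1348 lay at KCN loci.

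Most potassium channel genes had open chromatin at the TSS in both lines. A TSS region was present in both for 73 of 96 KCN genes (76.0%), against 75.4% of all protein-coding genes. It was present in H82 only for 7 genes, KCNAB3, KCNE4, KCNG4, KCNJ6, KCNMB2, KCNMB3 and KCNS1, which is 7.29% against a background of 5.09%. It was present in H146 only for 2 genes, KCNJ1 and KCNJ14, which is 2.08% against 1.86%. Another 14 genes (14.6%, background 17.7%) had no TSS region in either line. These shares were near the background, so as a family the KCN genes did not stand out in how often their start sites were open.

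A TSS region in both lines was more frequent among pore-forming than among auxiliary genes. Of 69 pore-forming genes, 58 were open at the TSS in both lines (84.1%, against 75.4% of all protein-coding genes). Another 8 were open in neither line (11.6%, background 17.7%), 1 in H82 alone (1.45%, background 5.09%) and 2 in H146 alone (2.90%, background 1.86%). All members of the Kv2, Kv3, Kv4 and Kv7 groups, 14 genes that include the fast-spiking channel KCNC1 and the A-type channel KCND3, had a TSS region in both. Of 10 silent modifiers, 8 had a TSS region in both lines and KCNG4 and KCNS1 had it in H82 only. The auxiliary subunits were the most divided, with 7 of 17 (41.2%) open in both lines and 0 in H146 alone. Another 6 were open in neither (35.3%, background 17.7%) and 4 in H82 alone (23.5%, background 5.09%). This rests on the 5′ end. With the start sites of all protein-coding transcripts, KCNMB2, KCNMB3 and KCNIP1 counted as open in both lines and KCNE3 in H82 alone.

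**Figure D1:**
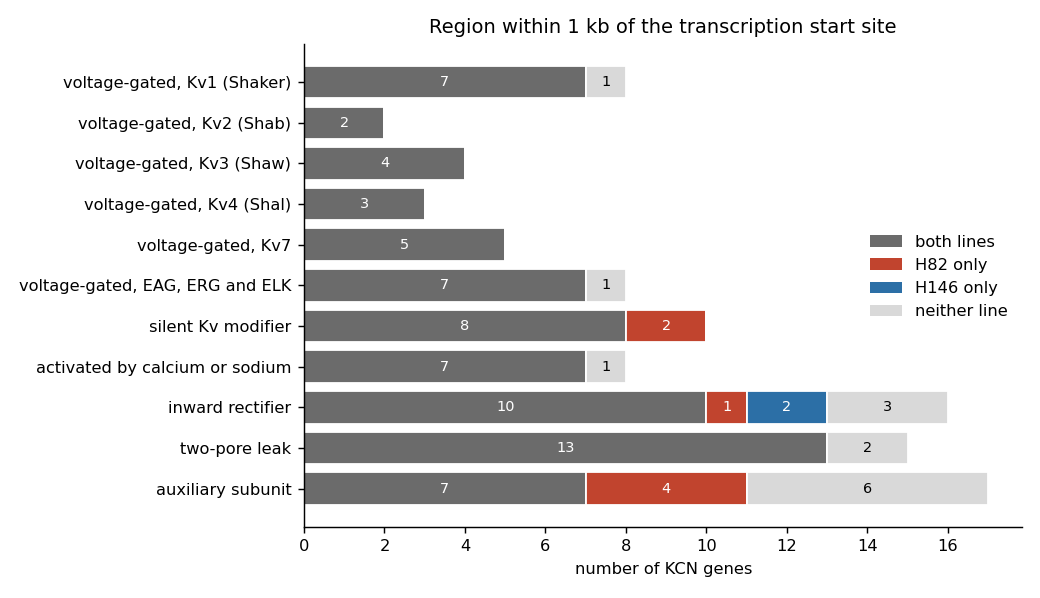
Number of KCN genes (x axis) in each channel group (y axis) whose TSS had a region inside 1 kb in both lines (grey), in H82 alone (red), in H146 alone (blue) or nowhere (pale). By the 5′ end of the gene, auxiliary subunits hold 4 of the 7 genes present in H82 only, and both genes present in H146 only are inward rectifiers.

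The genes with a TSS region in 1 line only encode channels of several kinds. KCNE4, a membrane-spanning subunit that inhibits Kv1 and Kv7 channels, had an H82 region of 1002 bp that ended 40 bp from its start, while the nearest H146 region was 3538 bp away. KCNG4, a silent partner of Kv2 channels, was covered at its start by 491 bp in H82, and the nearest H146 region lay 26375 bp away. KCNMB2 and KCNMB3, auxiliary subunits of the calcium-activated BK channel, had H82 regions of 277 and 650 bp, with the nearest H146 region 5925 and 3535 bp away. KCNAB3, a cytoplasmic beta subunit of Kv1 channels, had 807 bp in H82, and KCNS1, another silent partner of Kv2, had 282 bp. KCNJ6, which encodes the G protein-gated channel subunit GIRK2, had 1343 bp over its start in H82 and a nearest H146 region 5356 bp away. In the other direction, KCNJ1, the ROMK channel best known from the kidney tubule, had an H146 region of 407 bp at its start and a nearest H82 region 1625 bp away. KCNJ14, an inward rectifier of motor neurons, had an H146 region of 200 bp, the least width in the atlas, and a nearest H82 region 6793 bp away.

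The sequences of 5 of these line-only TSS regions, on hg38 in the direction of the gene's transcription, are shown because they are where the lines differ at a channel promoter. They are the central 200 bases of each region, or the whole region for KCNMB2, and were chosen because they hold no annotated exon. Capitals mark the word TAATCC, the core of sites bound by OTX2, on either strand.
KCNE4 (chr2:223051550-223051749, plus strand): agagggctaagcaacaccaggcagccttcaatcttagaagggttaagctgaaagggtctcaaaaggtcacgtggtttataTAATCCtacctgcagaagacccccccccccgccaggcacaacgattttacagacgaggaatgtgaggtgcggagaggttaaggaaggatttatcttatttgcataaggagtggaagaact
KCNG4 (chr16:84240016-84240215, minus strand): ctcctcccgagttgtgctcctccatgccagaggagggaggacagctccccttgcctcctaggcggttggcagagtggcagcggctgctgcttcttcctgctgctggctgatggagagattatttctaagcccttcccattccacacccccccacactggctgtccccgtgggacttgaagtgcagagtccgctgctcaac
KCNMB2 (chr3:178273408-178273684, plus strand): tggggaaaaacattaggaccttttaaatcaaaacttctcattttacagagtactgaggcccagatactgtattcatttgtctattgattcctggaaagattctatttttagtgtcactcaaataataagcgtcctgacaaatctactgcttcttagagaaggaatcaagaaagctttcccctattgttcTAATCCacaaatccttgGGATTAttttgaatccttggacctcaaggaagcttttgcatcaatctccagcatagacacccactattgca
KCNMB3 (chr3:179266409-179266608, minus strand): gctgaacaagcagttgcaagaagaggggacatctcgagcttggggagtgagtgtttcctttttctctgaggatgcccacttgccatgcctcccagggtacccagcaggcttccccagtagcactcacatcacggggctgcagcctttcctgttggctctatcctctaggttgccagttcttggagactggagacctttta
KCNJ1 (chr11:128867441-128867640, minus strand): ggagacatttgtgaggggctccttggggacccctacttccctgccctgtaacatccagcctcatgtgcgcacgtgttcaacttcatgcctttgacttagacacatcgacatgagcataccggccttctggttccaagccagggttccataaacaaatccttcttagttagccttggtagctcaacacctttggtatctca
The word occurred 2 times in the KCNMB2 region and 1 time in the KCNE4 window, and the KCNG4, KCNMB3 and KCNJ1 windows held none. It was found in the central 200 bp of 12.6% of all H82 regions at KCN loci (15.9% over the whole H82 atlas) and of 5.86% of H146 regions at KCN loci (7.38% over the whole H146 atlas). A match is a run of letters and not a bound site.

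Several genes without a region at the 5′ end had an open start further in. Where the start sites of all protein-coding transcripts were read, 8 of the 14 genes remained without a TSS region in either line: KCNA10, KCNE2, KCNE5, KCNJ13, KCNK18, KCNMB1, KCNRG and KCNU1. KCNH5, the EAG2 voltage-gated channel, had an inner start 56.9 kb from its 5′ end under a region of 2825 bp in H82 and 3150 bp in H146. KCNK2, the mechanosensitive leak channel TREK, had one 77.0 kb in under 2093 and 2207 bp. KCNIP1, a calcium-binding partner of Kv4 channels, had one 151 kb in under 630 and 820 bp, and KCNJ16 one 21.8 kb in under 1081 and 1336 bp. KCNJ15 and KCNE3 gained a TSS region in H82 alone, of 200 and 217 bp. Among the H82-only genes, KCNMB3 also had an inner start, 23.7 kb in, under an H146 region of 351 bp and no H82 region. KCNJ6 and KCNMB2 had inner starts that were open in both lines. For KCNMB2 these inner starts lay 263 kb and 286 kb in, under regions of 3045 and 1032 bp in H82 and 3250 and 1177 bp in H146, so its main open starts were shared by the lines and only the 5′ most start was read as H82 only. KCNAB3, KCNE4, KCNG4 and KCNS1 stayed H82 only and KCNJ1 and KCNJ14 stayed H146 only under both readings.

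The genes that stayed closed at every annotated start include channels of restricted tissues. KCNU1, the sperm channel, had a nearest region 4698 bp (H82) and 4569 bp (H146) from its start. KCNMB1, the BK subunit of smooth muscle, had no region in its whole locus in either line, the nearest being 45434 and 45324 bp from its start. KCNJ13, an inward rectifier of epithelia, had 0 regions in H82 and 1 in H146, and KCNRG, which suppresses assembly of Kv channels, had 4 in H82 and 0 in H146. KCNA10 and KCNE2 had 4 regions in each line, all outside the start.

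Open start sites also differed in width. Among the 73 genes with a TSS region in both lines, the region was wider in H82 for 29, wider in H146 for 39 and equal for 5, with a median ratio of H82 to H146 of 0.990. It differed by at least 2 times for 14 genes, 10 wider in H82 and 4 wider in H146. The H82 region of the Kv7 gene KCNQ5 measured 3813 bp and the H146 one 1382 bp. The silent modifier KCNG1 had 1320 against 580 bp, and KCNJ10, an inward rectifier known from glia, had 3110 against 1483 bp. The Kv3 gene KCNC1 went the other way, with 2255 bp in H82 and 8731 bp in H146, and so did the G protein-gated channel gene KCNJ9, with 447 bp (569 bp from the start) and 1344 bp (over it). At KCNJ9, H82 had 2 regions within 1 kb of the start against 1 in H146, and the 447 bp region lay inside the H146 one. KCNN4, the intermediate-conductance calcium-activated channel, had 2696 bp in H82 and 393 bp in H146, but these were different regions, since the H82 region began 934 bp from the start and the H146 region lay over it. H146 had 2 regions within 1 kb of the KCNN4 start and H82 had 1. The widest H146 region of that locus also measured 2696 bp, so KCNN4 counts as wider in H82 only by its nearest region.

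**Figure D2:**
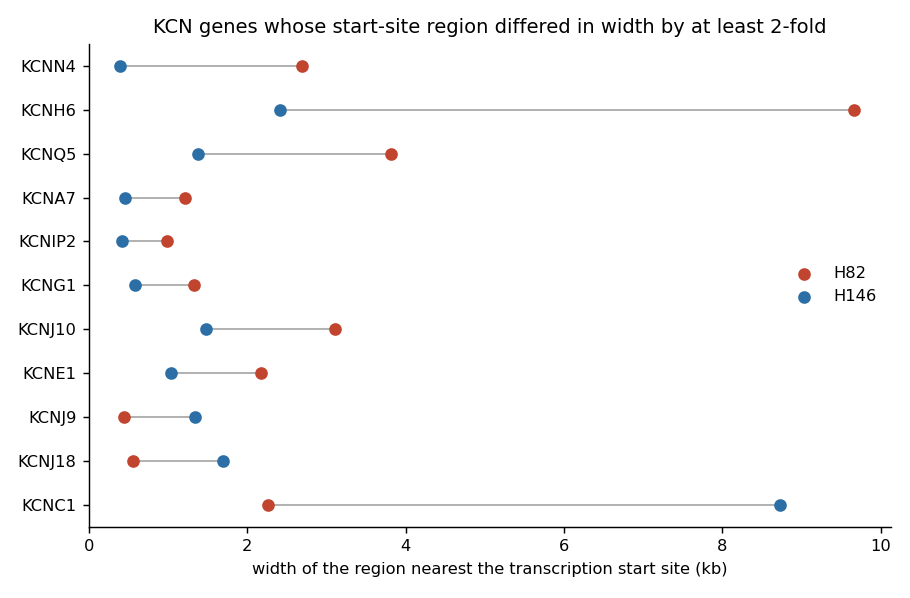
Width in kb (x axis) of the region nearest the TSS in H82 (red) and H146 (blue) for 11 of the 14 KCN genes (y axis) whose widths differed by at least 2 times, ordered by the ratio. KCNC1 sits at 8.73 kb in H146 and near 2 kb in H82, and KCNH6 at 9.67 kb in H82.

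Width depends on which neighbouring sites are joined, because regions within 500 bp were merged. KCNH6, an ERG channel, had a TSS region of 9667 bp in H82 and 2414 bp in H146, yet the H146 atlas had 4 regions under the H82 one, which together covered 74.7% of it, and the whole locus was covered to 51.0% in H82 and 53.8% in H146. At KCNC1, 5 H82 regions lay under the single H146 region and covered 52.1% of it. At KCNH2, the cardiac and neuroendocrine hERG channel, the H82 region of 11647 bp was the widest TSS region of the family in that line, and 2 H146 regions covered 81.5% of it. KCNN1, a small-conductance calcium-activated channel (8263 bp in H82 and 7122 bp in H146), and the leak channel KCNK9 (5586 and 5751 bp) were among the 5 widest in both lines.

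Over whole loci the lines covered similar shares. The median covered share of the 96 loci was 9.35% in H82 and 9.19% in H146, against 8.10% and 6.70% over all protein-coding genes. The median log2 ratio of covered bases, H82 over H146, was 0.11 for the 92 KCN loci with bases in both lines and 0.16 for all genes, and H82 covered more at 54 of 96 KCN loci (56.2%) against 59.4% of all genes. H82 regions cover 167 Mb in all and H146 regions 139 Mb, a log2 ratio of 0.27. Relative to that shift H82 was higher at 39 of the 96, a count that was not made over all protein-coding genes. The median of all genes, 0.16, also lay below 0.27, so this count is not read as a trait of the KCN genes. The shares in H82 and H146 went together over the 96 genes, with Pearson's r of 0.84 and Spearman's rho of 0.87, which describes genes of the same atlases that are not independent of each other. At least 2 times as many bases were covered in H82 at 12 loci (12.5%, background 14.6%) and in H146 at 1 locus (1.04%, background 1.71%). Neither share stood above its background.

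**Figure D3:**
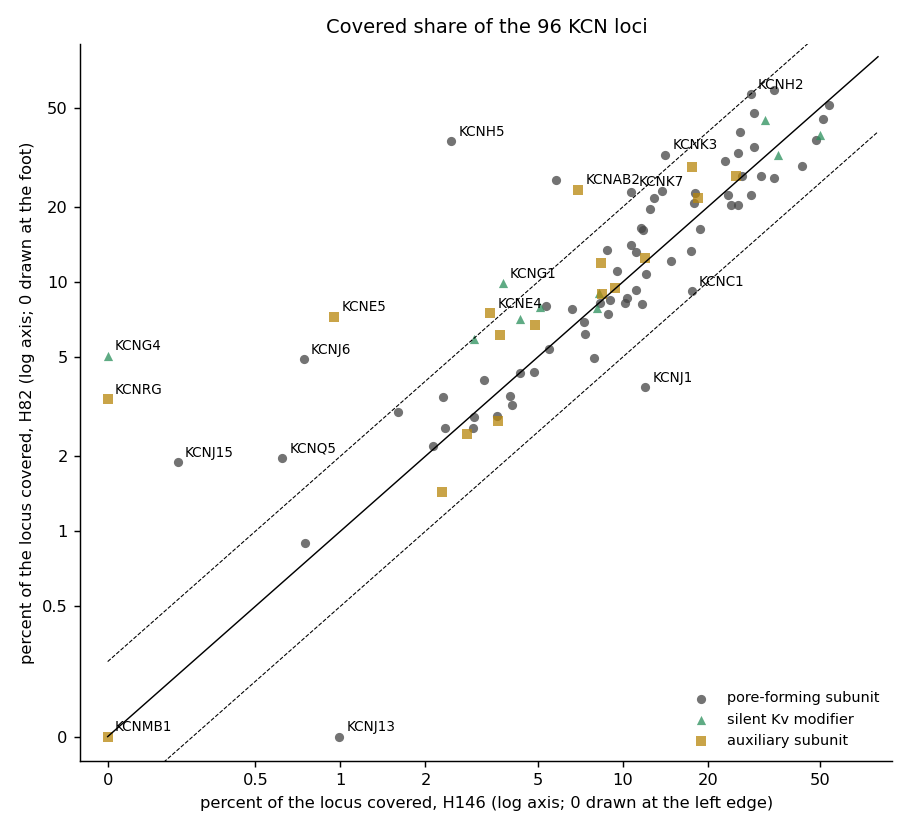
Percent of each KCN locus covered by regions in H146 (x axis) and H82 (y axis), both on log axes with 0 drawn at the edge, for pore-forming subunits (circles), silent modifiers (triangles) and auxiliary subunits (squares). The solid line marks equal shares and the dashed lines 2-fold; KCNH5, KCNAB2 and KCNJ6 lie above, and KCNJ1 lies below.

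Among the voltage-gated channels, the Kv1 to Kv4 groups had no locus past 2-fold in either direction. Over all protein-coding genes 14.6% were past it in H82 and 1.71% in H146, so 0 in such small groups does not set them apart. The 8 Kv1 (Shaker) genes, short genes with a median length of 6.30 kb, held 42 regions in H82 and 38 in H146. H146 covered more at 5 of them, and at 7 relative to the shift of 0.27, which was not counted over all genes. H82 covered more at 37.5% of them, against 59.4% of all protein-coding genes. KCNA2 had the most regions, 16 and 15, KCNA4 was covered to 22.4% in H82 and 28.3% in H146, and KCNA1, a Kv1 channel of axons, had a single region in each line, of 2397 and 2556 bp. In the Kv2 group, KCNB2 was covered to 6.93% and 7.29%. In the Kv3 group, KCNC1 had 20 regions in H82 and 29 in H146 and a log2 ratio of -0.93, the nearest to 2-fold toward H146 among the voltage-gated genes. KCNC4, also a Kv3 channel, leaned to H82 at 23.1% against 13.7%. The A-type Kv4 genes KCND1 (21.8% and 12.9%) and KCND3 (13.4% and 8.80%) were covered more in H82, while KCND2 was near equal at 4.36% and 4.83%.

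The Kv7 genes named here split between the lines. KCNQ5 had 14 regions and a covered share of 1.96% in H82 and 5 regions and 0.623% in H146, a log2 ratio of 1.65, and 10 of its H82 regions met none of the H146 regions. KCNQ3, a neuronal Kv7 channel, was covered more in H146, at 7.90% by 40 regions against 4.94% by 26, and so was the cardiac and epithelial channel KCNQ1, at 11.7% by 66 regions against 8.19% by 53.

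In the EAG, ERG and ELK group, the hERG gene KCNH2 was covered to 56.6% in H82 and 28.3% in H146, or 30182 and 15119 bp, just short of 2-fold. KCNH5 had the largest difference in covered share of the family, 36.7% in H82 by 53 regions against 2.47% in H146 by 13, a log2 ratio of 3.89. The 155 kb covered in H82 were made up of 80.9 kb in 46 H82-only regions and 74.1 kb in 7 shared ones, against 10.4 kb covered in H146. A single H82 region of 52898 bp at chr14:62700176-62753073, at the 3′ end of this minus-strand gene, held 34.1% of the covered bases, and H146 covered 5.38% of it. The region at the open inner start held 1.82%. The other 6 genes of the group lay between log2 ratios of -0.20 and 0.34.

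The silent modifiers held 2 of the loci past 2-fold, both in H82. KCNG4 had 5 regions covering 5.05% in H82 and 0 regions in H146, the only locus past 2-fold with no base in the other line. KCNG1 was covered to 9.89% and 3.76%, with a TSS region of 1320 bp in H82 and 580 bp in H146. H82 covered more at 7 of the 10 modifier loci (70.0%, against 59.4% of all protein-coding genes). Relative to the shift of 0.27 it did so at 6, without a count over all genes to set beside it. KCNF1 was the most covered of them in H82 (44.5%, with 31.8% in H146) and KCNG2 in H146 (49.7%, with 38.8% in H82), KCNS3 had the most regions, 48 and 33, and KCNS2 had the same region width of 5372 bp at its TSS in both lines.

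Among the 8 calcium- and sodium-activated channels no locus passed 2-fold (background 14.6% in H82 and 1.71% in H146), which in so few genes does not set them apart. KCNMA1, which encodes the BK pore, had the most regions of the group, 76 in H82 and 84 in H146, a TSS region of 3517 bp in both lines, and covered shares of 6.18% and 7.33%. The sodium-activated channel KCNT1 was covered to 47.4% in H82 and 29.0% in H146, and KCNT2 to 2.59% and 2.94%. KCNN3 leaned to H82 (14.1% and 10.7%) and KCNN2 to H146 (2.89% and 3.58%).

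The inward rectifiers held loci past 2-fold in both directions, 2 of 16 in H82 (12.5%, background 14.6%) and 1 in H146 (6.25%, background 1.71%). KCNJ6 had 46 regions in H82 and 9 in H146, and 39 of the H82 regions met no H146 region, so that 4.90% of the locus was covered in H82 and 0.742% in H146 (log2 ratio 2.72). KCNJ15, its neighbour on chromosome 21, had 7 regions in H82 and 1 in H146 (1.89% and 0.265%, log2 ratio 2.84). KCNJ1 was the single KCN locus past 2-fold in H146, with 12.0% covered against 3.78% (log2 ratio -1.67), although each line had 5 regions there. A region of 4169 bp just upstream of the KCNJ1 start in H146, where H82 had 236 bp, held most of that difference. KCNJ3, KCNJ5 and KCNJ9, the other G protein-gated subunits, had a TSS region in both lines and log2 ratios of 0.06, -0.28 and -0.32, so KCNJ6 was alone among the GIRK genes in being past 2-fold. KCNJ11, the pore of the ATP-sensitive channel, was covered to 10.8% and 12.1%.

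The K2P (2-pore) leak channels had 13 of 15 start sites open in both lines (86.7%, background 75.4%). Past 2-fold in H82 were 2 of the 15 loci (13.3%, background 14.6%). KCNK3, an acid-sensitive TASK channel, was covered to 32.4% in H82 by 17 regions and to 14.1% in H146 by 11, a log2 ratio of 1.20. Its close relative KCNK9 leaned the other way, at 37.1% in H82 and 48.1% in H146. KCNK7, which is not known to carry current alone, had 5 regions in each line and 23.0% against 10.7%. The remaining 12 K2P genes were within 2-fold, from a log2 ratio of -0.40 at KCNK16 to 0.91 at KCNK1.

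The auxiliary genes were covered more in H82 at 13 of 17 loci (76.5%, against 59.4% of all protein-coding genes). H146 covered more at 3, and 1 was equal at 0. Relative to the shift of 0.27, H82 covered more at 8 of 17, without a count over all genes to set beside it. KCNAB2, a beta subunit of Kv1 channels, had 36 regions in H82 and 11 in H146, 26 and 1 of them line-only, and covered shares of 23.4% and 6.96%. KCNE4 had 18 regions against 7 (7.47% and 3.39%), and KCNE5 had 2 against 1 (7.26% and 0.95%), the latter from a locus of few regions. All 5 KCNE loci and all 3 KCNAB loci were covered more in H82, of which KCNE2, KCNAB1 and KCNAB3 turned to H146 relative to the shift. The KCNIP loci were split 2 and 2, with KCNIP2 also turning to H146 relative to the shift, and KCNIP4 had 59 regions in H82 and 62 in H146. KCNMB2 had the most regions of the family in H82, 87, with 79 in H146, and the shares were near equal at 12.5% and 12.0%. KCNAB1 had 75 and 68 regions, and its TSS region had the same width of 1663 bp in both lines.

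Several of these differences depended on where the locus was set to end and on scaling. Relative to the shift of 0.27, KCNE4, KCNK3 and KCNK7 fell below 2-fold, at log2 ratios of 0.87, 0.93 and 0.83, which left 9 loci higher in H82. KCNK3 was at 0.88 with flanks of 50 kb, at 0.06 within 10 kb of its start and at 0.64 relative to its surroundings. KCNE4 was at 0.77 with flanks of 50 kb and at 0.39 within 10 kb of its start, and KCNK7 at 0.12 with flanks of 50 kb and at 0.10 in the gene body. With flanks of 50 kb KCNG1 and KCNJ1 were at 0.62 and -0.53, and within 10 kb of its start KCNQ5 was at 0.95. KCNG4 and KCNE5 were not past the limits in the gene body alone, and neither was KCNG4 when only regions of at least 500 bp were read. KCNJ6 stayed past 2-fold in H82 under each of these settings.

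**Figure D4:**
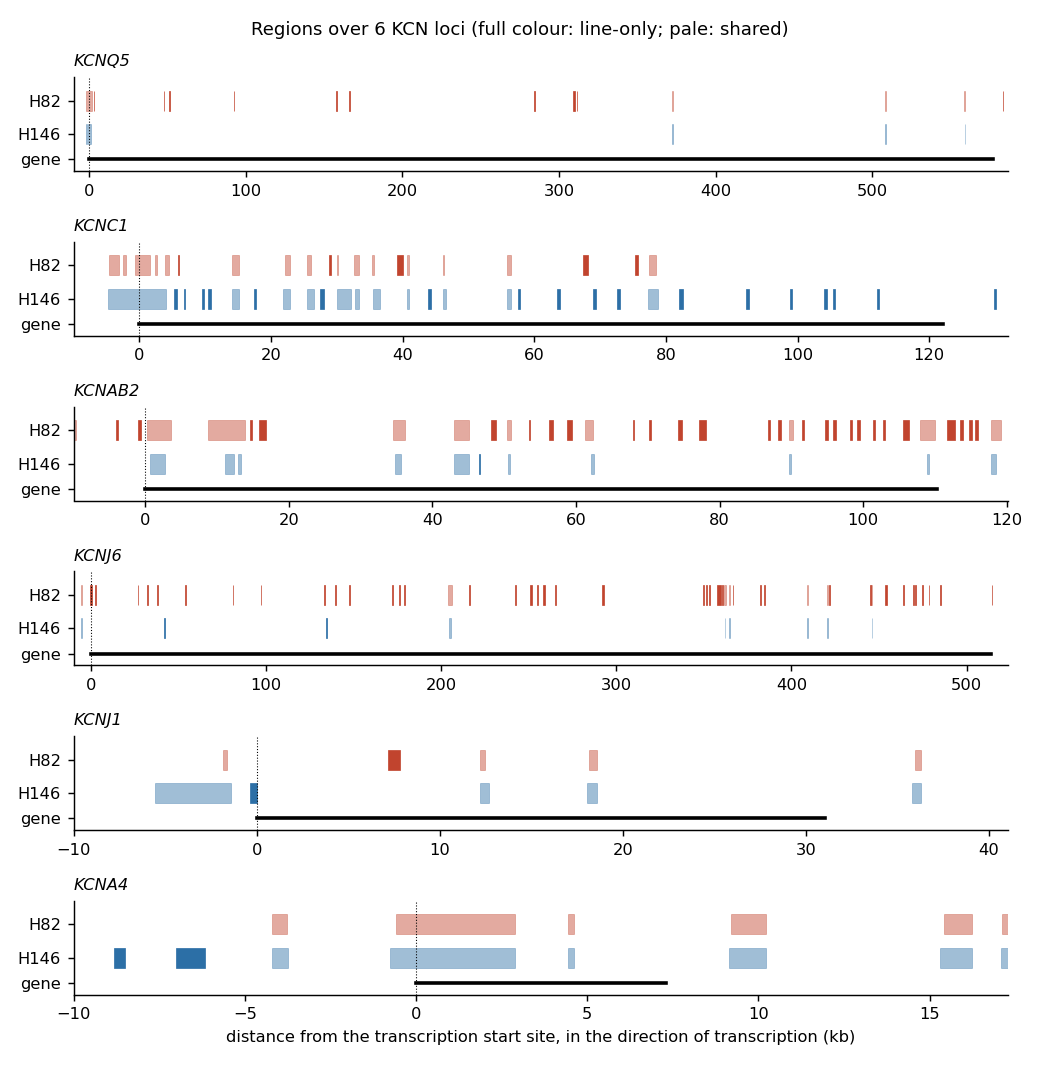
Accessible regions over 6 KCN loci by distance from the TSS in kb (x axis, in the direction of transcription), with H82 above in red, H146 below in blue, and the gene as a black bar; full colour marks line-only regions and pale colour shared ones. KCNQ5, KCNAB2 and KCNJ6 carry 10, 26 and 39 H82-only regions, KCNC1 carries 18 H146-only regions, KCNJ1 has the wide H146 region upstream of its start, and KCNA4 looks alike in both lines apart from 2 H146-only regions.

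The chromosome around a locus moved with the locus itself. Over the 92 loci with covered bases in both lines, the log2 ratio of the locus and that of the 500 kb to either side had Pearson's r of 0.73 and Spearman's rho of 0.66 (0.64 and 0.65 without KCNH5), as a description of genes that share libraries and, for neighbours, sequence. Around KCNH5 the surrounding chromosome was covered to 35.6% in H82 and 2.26% in H146, a log2 ratio of 3.98, so that the locus was no more open than its surroundings. Around KCNAB2 the surroundings had a log2 ratio of 1.60 against 1.75 for the locus, and around KCNG1 0.99 against 1.39. KCNJ6, KCNJ15 and KCNE5 exceeded their surroundings by 1.31, 1.56 and 1.88 on the log2 scale, although those surroundings were themselves at 1.42, 1.28 and 1.06. KCNE4 and KCNK7 lay in surroundings that did not favour H82, with log2 ratios of 0.00 and 0.03, and KCNJ1 in surroundings at -0.11. At KCNU1, on chromosome 8, the surroundings were at 2.15 and the locus at 0.26, and at KCNJ9 they were at 0.70 and -0.32, so these loci were past 2-fold toward H146 relative to their surroundings. Whether DNA copy number moves with these stretches was not tested.

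**Figure D5:**
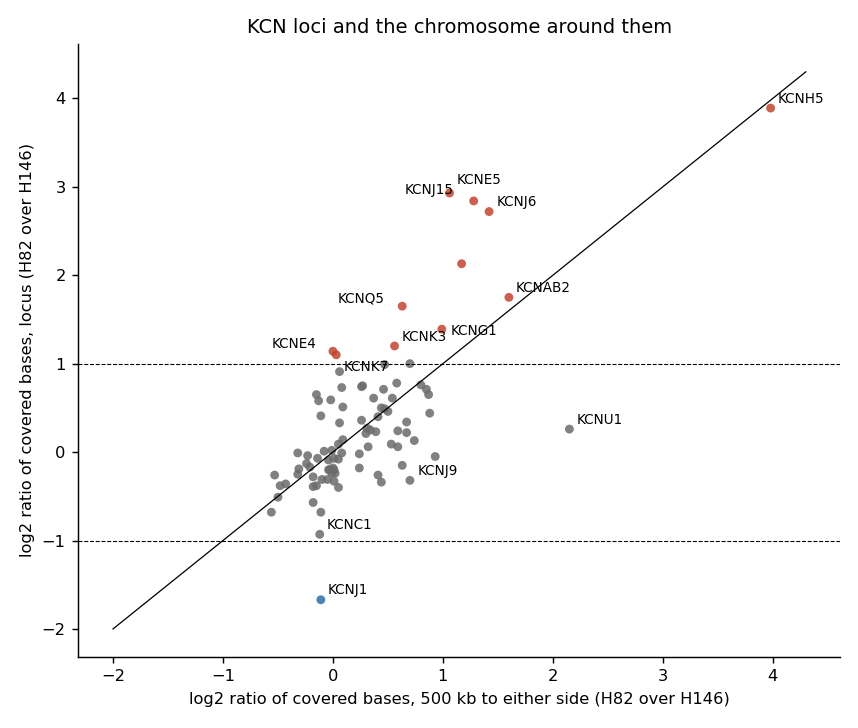
Log2 ratio of covered bases, H82 over H146, at each of 92 KCN loci (y axis) against that of the 500 kb to either side (x axis), with loci at least 2-fold higher in H82 in red and in H146 in blue; the solid line marks equality and the dashed lines 2-fold. KCNH5 lies on the line at 3.89 and 3.98, and KCNJ1 and KCNE4 differ with surroundings near 0.

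Regions at KCN loci were shared between the lines slightly more often than those of the whole atlases. By position, they were shared more often in introns and less often at the TSS than at all protein-coding loci. Of 1577 H82 regions, 978 (62.0%, exact binomial 95% interval 59.6 to 64.4%) shared at least 1 bp with an H146 region, against 59.3% of the whole H82 atlas. Of 1348 H146 regions, 981 (72.8%, 70.3 to 75.1%) did so with an H82 region, against 70.5% of its atlas. The intervals cover counting error over regions only. Sharing was highest at the TSS, 88.4% in H82 and 92.5% in H146, and lowest in introns, 58.5% and 69.0%, against 91.9% and 96.6% (TSS) and 52.5% and 64.4% (introns) over the loci of all protein-coding genes. Introns held 461 of the 599 H82-only regions (77.0%) and 295 of the 367 H146-only regions (80.4%), against 69.1% and 72.9% at all protein-coding loci, and they also held 70.4% and 70.5% of all regions at KCN loci, against 59.1% and 57.9%. Line-only regions were narrow, with a median width of 388 bp in H82 and 316 bp in H146, against 671 and 705 bp for shared regions. A total of 156 regions had the same start and end in both atlases.

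Many neuronal channel genes carry RE1 sites, the sequence through which the repressor REST silences neuronal genes in other cells, so the core of that site was read at each locus. The core was CAGCACC followed, after any 2 bases, by GGACAG, on either strand, which occurs 820 times on the 24 chromosomes. It was found at 13 KCN loci (13.5%), against 3.26% of all protein-coding loci. KCN loci were longer, with a median gene length of 42.1 kb against 27.5 kb, and per Mb of locus there were 0.861 cores at KCN genes and 0.380 at protein-coding genes. Of the 13 cores, 7 lay outside all regions, 2 were covered in both lines, 3 were covered in H82 alone and 1 was covered in H146 alone. Over the genome, 66.5% of cores lay outside all regions, 18.0% were covered in both lines, 11.7% in H82 alone and 3.78% in H146 alone.

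Of the 6 cores that lay in an accessible region, 5 are shown with 4 bases to either side, on the strand of the core, and capitals mark the fixed bases.
KCNAB2 (chr1:6052604-6052626, plus strand): aattCAGCACCtcGGACAGcgct
KCNH2 (chr7:150984072-150984094, minus strand): ttttCAGCACCttGGACAGagac
KCNV2 (chr9:2718231-2718253, minus strand): ccagCAGCACCccGGACAGgtag
KCNH4 (chr17:42180283-42180305, minus strand): ggttCAGCACCttGGACAGccac
KCNK12 (chr2:47571464-47571486, plus strand): gcgtCAGCACCgcGGACAGcgca
The KCNAB2 core, in an intron 61681 bp from the start, lay in an H82 region of 1141 bp, and the H146 region that overlaps it did not reach the core. The KCNH2 core, 5769 bp upstream of the start, lay in an H82-only region of 352 bp. The KCNV2 core, in an exon 725 bp from the start, lay in the H82 TSS region, and the H146 TSS region of KCNV2 did not reach it. KCNH4 (an ELK channel) and KCNK12 had the core within the TSS regions of both lines, in an intron 841 bp after the start and 497 bp before it. At KCNK9 an intronic core 45204 bp from the start lay in an H146-only region of 1423 bp. The cores at KCNA2, KCNC4, KCNH1, KCNIP4, KCNN4, KCNQ5 and KCNT1 lay in no region of either line. Both examples that follow are from these uncovered cores.
KCNA2 (chr1:110542889-110542911, minus strand): atctCAGCACCaaGGACAGagct
KCNT1 (chr9:135714779-135714801, minus strand): ccgtCAGCACCgcGGACAGctcc

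Words bound by lineage factors were counted in the line-only regions at KCN loci, as matches per kb of region on both strands. TAATCC (OTX2) had 0.953 matches per kb in the 599 H82-only regions and 0.337 in the 367 H146-only regions, a log2 ratio of 1.5, against 1.49 over the whole atlases. TGTTTAC (FOXA) had 0.0810 and 0.258 per kb, a log2 ratio of -1.67 from 29 and 36 matches, against -1.28 over the whole atlases. The E-box CAGATG, the form preferred by NEUROD1, had 1.17 and 0.933 per kb (log2 ratio 0.33, whole atlases 0.47), and CAGCTG, another E-box form, had 0.779 and 0.919 (log2 ratio -0.24, whole atlases -0.12). KCNH5 alone held 59 of the 420 CAGATG and 59 of the 341 TAATCC matches in H82-only regions. Without KCNH5 the log2 ratios were 1.58 for OTX2, -1.68 for FOXA, 0.48 for CAGATG and -0.02 for CAGCTG. The KCN loci thus showed the same order of words as the whole atlases, and after KCNH5 the H82-only matches to CAGATG were most numerous at KCNJ6 (28), KCND3 (19) and KCNS3 (18).

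The line-only regions of at most 300 bp with the most matches show what these words look like in place. They were picked by that count after the data were seen, are given on the plus strand of hg38, and have the words in capitals: CAGATG for KCNMA1 and TAATCC for KCNS3, both H82-only, and TGTTTAC for KCNT2, which is H146-only.
KCNMA1 (chr10:77359304-77359523, plus strand): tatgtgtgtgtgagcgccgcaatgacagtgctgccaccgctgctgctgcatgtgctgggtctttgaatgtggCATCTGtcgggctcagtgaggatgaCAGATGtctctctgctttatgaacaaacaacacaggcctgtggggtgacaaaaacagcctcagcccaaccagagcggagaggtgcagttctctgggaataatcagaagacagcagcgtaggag
KCNS3 (chr2:18071495-18071729, plus strand): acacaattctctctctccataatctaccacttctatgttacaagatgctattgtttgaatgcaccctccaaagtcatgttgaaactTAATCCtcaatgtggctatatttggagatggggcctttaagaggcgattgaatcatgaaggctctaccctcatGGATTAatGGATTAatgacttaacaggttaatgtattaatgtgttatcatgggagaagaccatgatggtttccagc
KCNT2 (chr1:196433856-196434079, plus strand): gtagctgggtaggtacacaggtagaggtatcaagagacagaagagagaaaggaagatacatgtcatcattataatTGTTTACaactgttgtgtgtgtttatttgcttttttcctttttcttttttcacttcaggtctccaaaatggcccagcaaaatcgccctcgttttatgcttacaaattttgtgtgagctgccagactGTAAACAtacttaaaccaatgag
The KCNMA1 region holds 2 matches, the KCNS3 region 3 and the KCNT2 region 2, counting both strands, and none of them overlaps an annotated protein-coding exon. An H82-only KCNH5 region also held 2 CAGATG matches and an H146-only KCNK13 region 2 TGTTTAC matches. Where counts were equal the narrowest region is shown. The TGTTTAC word was in the central 200 bp of 5.99% of H146-only and 1.5% of H82-only regions at KCN loci, against 7.13% and 2.53% over the whole atlases. TAATCC was in 6.81% and 21.2%, against 8.05% and 27.8%, so each share at KCN loci was below that of its atlas.

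Chromosome by chromosome, the H82 excess of regions was largest on chromosomes 1, 2, 14 and 21. The 4 KCN genes of chromosome 21 held 65 H82 and 20 H146 regions, and all 4 were covered more in H82. The 14 genes of chromosome 1 held 253 and 182. On chromosome 11 the order turned, with 117 regions in H82 and 139 in H146 over 9 genes, and on chromosome 8 with 112 and 119 over 6 genes. KCNJ12 and KCNJ18, near-identical inward rectifier genes on chromosome 17, had TSS regions of 1845 and 1858 bp and of 560 and 1695 bp in H82 and H146, and short reads from these copies may be placed on either, so their values are uncertain. The TSS region of KCNE1 measured 2176 bp in H82, ending 47 bp from the start, and 1038 bp in H146, ending 712 bp from it, and its near-identical copy KCNE1B was not analysed here.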

How the data were processed

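ATAC-seq libraries of untreated and FHD-286-treated H82 and H146 cells were prepared and sequenced by a service laboratory. Per the study's methods and the submitters' processing notes, the authors used Trim Galore 0.4.4 and Bowtie2 2.3.4 (hg38), Picard for duplicates and MACS2 per sample, removed blacklisted regions, and joined those of a line lying within 500 bp. Whether read ends were shifted for Tn5 is not given in the sources used here. The deposited values are region starts and ends in bp, with no score, count or sample, so the comparisons carry no test. More or deeper libraries add regions to an atlas. Coordinates are printed 1-based.

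TSSs, exons and lengths came from GENCODE release 44, and sequence from hg38 (24 chromosomes). Counts, coverage and sharing were computed with Python 3.11.15 and numpy 2.4.6, tested on simulated intervals, and differed from bedtools 2.31.1 for 0 regions and 0 loci. Intervals are exact binomial (scipy 1.17.1). Named were genes with a TSS region in 1 line or neither, loci past 2-fold (up to 10 per direction by covered share), the gene with most regions per subfamily, the widest and most unequal TSS regions, genes with an RE1 core, and near-identical copies; others were added as examples of their groups. A few genes that met these rules are not reported here. The members, lists and words were chosen with earlier results of these data known.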

Additional observations from a re-analysis of the deposited data

How the results depend on the processing

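A total of 15 alternatives gave 66 values of the 10 summary results, of which 44 stayed within the limits set (1.5 times for a count, the 95% interval for a share or median) and 22 did not. With a TSS window of 500 bp, 4 genes were H146 only. With 5 kb, 4 were H82 only, 1 was H146 only and 7 had a region in neither line. With the TSSs of all transcripts, 8 had a region in neither line. With regions of at least 500 bp, 2 loci were higher in H146 and the shared percents were 64.6 (H82) and 75.4 (H146). With an equal number of regions, 2 loci were higher in H146 and the percents were 65.3 and 65.5. At 1.5-fold, 27 loci were higher in H82 and 4 in H146. With flanks of 50 kb or the gene body only, 0 were higher in H146, and within 10 kb of the TSS the median covered shares were 17.9% and 13.6%. Scaled to total covered bases (a log2 shift of 0.27), 2 were higher in H146. Relative to the surrounding 500 kb, 7 were higher in H82 and 3 in H146. With overlap of at least 50% of both regions, 46.1% and 53.9% were shared. Of 89 log2 ratios of single loci, 2 reversed: KCNJ1 to 0.28 in the gene body only, which leaves out the upstream region, and KCNH5 to -0.08 relative to its surroundings; 18 others kept their direction but not 2-fold. No replicate could be left out and no paired analysis was possible because the atlases hold no value per library.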

Other observations

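Proteins that partner potassium channels but carry other symbols were read in the same way. Of 9 such genes, 6 were open at the TSS in both lines (66.7%, background 75.4%). ABCC9 and LRRC38 were open in H82 alone (22.2%, background 5.09%), and DPP10 in neither (11.1%, background 17.7%). With the start sites of all transcripts, ABCC9 and DPP10 were open in both lines. Covered bases were at least 2 times more in H82 at 4 loci (LRRC38, LRRC52, LRRC55 and DPP10; 44.4%, against 14.6% of all protein-coding genes) and in H146 at 0 (background 1.71%). LRRC52 and LRRC55, auxiliary subunits of BK-type channels, were covered to 12.8% and 7.57% in H82 and to 2.72% each in H146, and LRRC38 to 3.15% against 0. DPP10, a partner of Kv4 channels, had 33 regions in H82 and 8 in H146, while its relative DPP6 had 67 and 84. ABCC8, the sulfonylurea receptor that joins KCNJ11, was covered to 18.5% and 16.5%.

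The HCN genes, which encode the pacemaker channels related to the potassium channels, had a TSS region in both lines at all 4 (background 75.4%). HCN2 was covered to 55.7% in H82 and 15.3% in H146 and HCN4 to 29.2% and 14.4%, both past 2-fold, with surroundings at log2 ratios of 1.24 and 0.97. Of 39 voltage-gated calcium and sodium channel genes, 28 were open at the TSS in both lines and 5 in neither, with 6 open in H82 alone (15.4%, against 5.09% of all protein-coding genes) and 0 in H146 alone (background 1.86%). With the start sites of all transcripts, CACNA1H, CACNA2D4 and SCN1A were open in both lines, and only CACNA1F, CACNG2 and SCN2B stayed H82 only. CACNA1C and CACNA1D moved from neither line to both. The background share was not counted under that reading. There were 7 loci past 2-fold in H82 (17.9%, background 14.6%) and 1 in H146 (2.56%, background 1.71%), which was SCN10A, covered to 0.370% in H82 and 2.16% in H146. Among the 7, CACNA1G was covered to 52.0% and 22.8%, and CACNA1C to 2.98% and 1.13%. These values were not tested, for the same reason as those of the KCN genes.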
